A study of Mus musculus with 82 samples.

Results

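Primary smooth muscle cells from the aorta of C57BL/6 mice (aVSMC) were incubated for 24 h with 1 of 2 single agonists, and their transcriptomes were set directly against each other. The members are 12 of the 82 RNA-sequencing libraries, namely all those whose labels give EGF alone or U46619 alone as the treatment and 24 h as its length. EGF was used at 10 µg/L (n = 6) and U46619 at 1 µM (n = 6), and each of mice 1 to 6 gave 1 culture to each agonist, so that every comparison was made within a mouse. No control culture entered the test. All cells had been passaged in a medium that itself contained EGF, serum, insulin, transferrin, hydrocortisone and selenite, and all were then kept for 24 h without serum or supplements before the agonist was added. The cells therefore share a history of EGF exposure, and the groups differ only in the agonist of the last 24 h. These are cultured cells of several passages and bulk RNA, in which fewer cells of a type and less RNA per cell cannot be told apart.

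EGF binds EGFR, a receptor tyrosine kinase that signals through the ERK and PI3K pathways and is a classical mitogen receptor of smooth muscle. U46619 is a stable analog of the prostaglandin endoperoxide and thromboxane type. It activates TP, the thromboxane receptor encoded by Tbxa2r, a G protein-coupled receptor that constricts vessels through calcium and the small GTPase RhoA. RhoA shapes the actin cytoskeleton, and actin in turn governs MRTF, the cofactor of the transcription factor SRF, and YAP, the cofactor of TEAD factors. Many contractile genes are SRF targets, and Ccn1, Ccn2 and Ankrd1 are widely used as YAP targets.

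The total count per library was 18785876 to 20818809. Of 55401 genes in the table, 12916 were tested, while 7075 genes, those on chromosome 9, on the sex chromosomes and in mitochondrial DNA, are listed at 0 and were not analysed here. The 12 libraries differed far more by mouse than by agonist. The first principal component, with 38.4% of the variance, separated mice 1 to 3 from mice 4 to 6 whichever agonist was given, and within-mouse pairs deviated from their group means together (r = 0.619 to 0.871, over genes). Smooth muscle markers were present in every library, with summed levels of 536 to 10913 FPM (counts scaled to a common library size) with EGF and 4999 to 17141 FPM with U46619, over the 6 of 8 markers that were measured. Markers of other cells of the vessel wall differed between mice. Endothelial markers summed to 6.92 to 66.3 FPM in the cultures of mice 1 to 3 and to 400 to 2488 FPM in those of mice 4 to 6, although Cdh5, a defining endothelial gene, was at 0 in all of them. Adipocyte markers reached 2472 FPM in mouse 6 and mesothelial markers 877 FPM in mouse 3. Myeloid markers stayed at 20.2 to 111 FPM with Ptprc and Fcgr1 at 0, and lymphocyte markers did not exceed 7.89 FPM. These differences are between mice, and the fit removes the part of them that both cultures of a mouse share.

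U46619 and EGF left aVSMC with different transcriptomes after 24 h. Both tools together (edgeR by its quasi-likelihood test, DESeq2 by its Wald test, FDR under 0.05 in each) and the minimum of 5 FPM in 1 group left 1280 genes (9.91% of those tested) as differentially expressed genes (DEG). With U46619, 634 of them (4.91%) were higher, and with EGF 646 (5.0%). Without adjustment of the p-values, 4002 genes (31.0%) had p under 0.05 by edgeR and by DESeq2. The median size was a log2-fold change of 0.71, which is 1.64-fold, and 362 DEG differed over 2-fold and 49 over 4-fold. Of the DEG, 1126 moved the same way in 6 of 6 mice, where 20.9% of all genes tested did so. Levels differed widely between mice, and 63 DEG had groups without any overlap (0.697% of all genes tested had).

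The number of DEG depended on single mice and on the pairing. The FDR of the DEG lay close together, between 0.00443 and just under the threshold with a median of 0.0362, and 2 genes, Vgf and Relt, had an FDR under 0.01. Without mouse 1, 4 or 5, only 6, 2 and 2 DEG were left. Without mouse 2, 3 or 6, there were 503, 1347 and 912. In the fits without mouse 1, 4 or 5, the median size over the DEG of the full fit was 0.675, 0.726 and 0.720 on the log2 scale. There 712, 1119 and 997 of these DEG had an edgeR FDR under 0.1. Vgf and Relt are the 2 genes that passed in all 6 fits without 1 mouse, and 1113 DEG passed in at least 1 of these fits. Of 93 DEG described singly, Nppb, Inmt, Pde1a, Acaa2 and Uqcrc2 passed in 0 of these fits. Nppb was tested in only 5 of the fits and Inmt in only 4, because of the filter on low counts. Without the mouse as a block, Vgf alone passed. limma on the paired differences called 0 genes, with a lowest FDR of 0.0541 and 4389 genes at an unadjusted p under 0.05, and DESeq2 alone called 2406. In these fits, which share libraries, 0 of the 1280 DEG had the other sign. The size of the change was largest in mouse 2 (median 1.10 on the log2 scale towards the called direction) and mouse 1 (0.857) and smallest in mouse 3 (0.404) and mouse 6 (0.409).

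**Figure D1:**
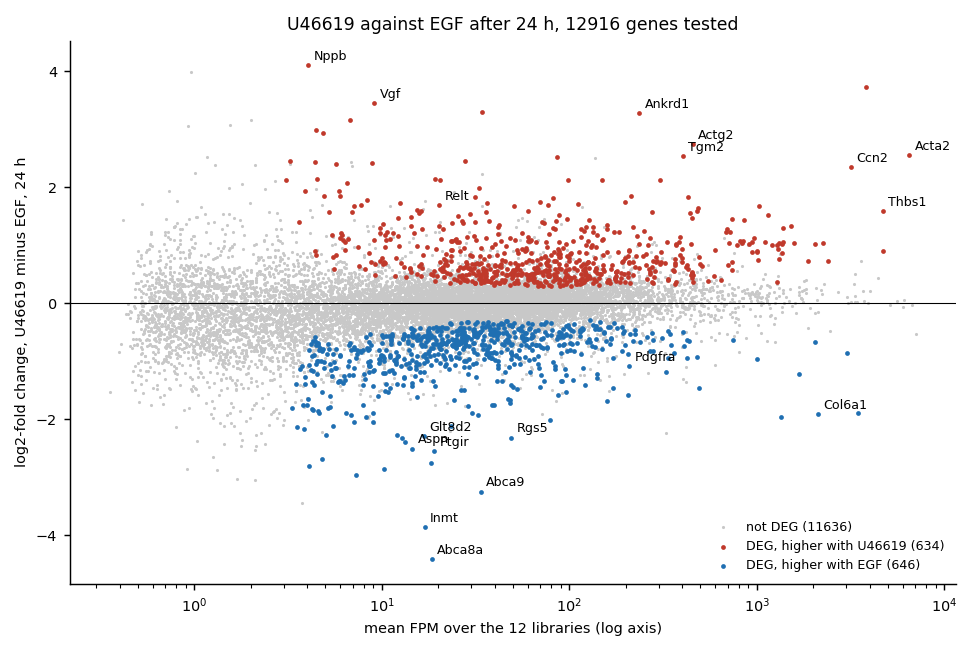
Log2-fold change (U46619 minus EGF, vertical axis) against the mean FPM over the 12 libraries (log axis) for the 12916 genes tested after 24 h. Red points are the 634 DEG higher with U46619, blue points the 646 DEG higher with EGF and grey points the other genes. The named DEG include abundant genes such as Acta2, Ccn2 and Thbs1, and Nppb, Abca8a and Inmt lie farthest from 0.

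The genes that stood highest with U46619 include secreted peptides, a YAP target and smooth muscle actins. Vgf (chromosome 5, 137026392-137033351 in GRCm38), which encodes a secreted neuropeptide precursor, was the most stable of them. Its level ran from 0.679 through a median of 1.52 to 2.27 FPM with EGF and from 5.01 through 17.9 to 25.2 FPM with U46619. The lowest U46619 culture was above the highest EGF culture, and the log2-fold change was 3.45 ± 0.27 (SE, n = 6 mice, FDR = 0.00443). Relt (chromosome 7, 100845847-100863446), a member of the TNF receptor family, behaved in the same way on a smaller scale. Its cultures held 6.13, 9.85 and 11.9 FPM (lowest, median, highest) with EGF and 18.9, 32.0 and 46.4 FPM with U46619, without overlap (log2-fold change 1.69 ± 0.14, FDR = 0.00443).

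Nppb (chromosome 4, 147985788-147987205), the gene of B-type natriuretic peptide, had the largest fitted change among the DEG higher with U46619 (4.10 ± 0.91, FDR = 0.0343), on very low counts. It was at 0 to 0.579 FPM with EGF and at 0.115, 3.25 and 35.4 FPM with U46619, and mouse 2 held the highest value by far. Without mouse 2 the log2-fold change of Nppb was 3.09, and Nppb was no DEG. Ankrd1 (chromosome 19, 36111961-36120099), a muscle ankyrin repeat protein and YAP target, went from 1.09, 14.95 and 201 FPM to 3.79, 171.4 and 1362 FPM (3.27 ± 0.67, FDR = 0.0306). The groups overlapped, since the EGF culture of mouse 5 lay above the U46619 cultures of mice 1, 3 and 4, although 6 of 6 mice moved the same way.

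Tgm2, a transglutaminase that crosslinks matrix proteins, was at 45.1, 86.4 and 259 FPM with EGF and at 95.9, 647 and 1290 FPM with U46619 (log2-fold change 2.53 ± 0.38, FDR = 0.0245). Siglecg, a sialic acid-binding lectin usually described in B cells, was at 4.74, 22.7 and 66.4 FPM with EGF and at 67.4, 93.1 and 379 FPM with U46619, without overlap (2.52 ± 0.56, FDR = 0.0343). Of 6 B and T lymphocyte markers measured, 5 were under 1 FPM throughout, and the other, the T cell receptor gene Trac, was not a DEG (1.28 ± 0.60, FDR = 0.177). Their summed level was 0.631 to 4.28 FPM with EGF and 1.87 to 7.89 FPM with U46619, and it differed most in mice 1 and 2 (1.23 against 7.89 and 0.631 against 5.35 FPM), which also had the largest Siglecg differences (3.80 and 5.39 on the log2 scale). The part of these markers in the Siglecg result was not tested. The DEG with the largest changes towards U46619 in 6 of 6 mice also included Crct1 (3.30), H2.M1 (3.16), C4bp (2.98) and Klhl30 (2.94) in log2-fold change, with means of 6.11 FPM or less with EGF, and the actins Actg2 and Acta2. Rab3ip, an exchange factor for Rab GTPases, was at 16.5, 30.1 and 44.3 FPM with EGF and at 59.8, 94.1 and 116 FPM with U46619, without overlap (1.59 ± 0.17, FDR = 0.0243). With Arhgdig (1.73 ± 0.19) and Tmem200a (1.47 ± 0.17) it belongs to the DEG with the lowest FDR.

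Among the genes that stood higher with EGF, the transporter gene Abca8a came first. Abca8a (chromosome 11, 110025634-110095978), an ABC transporter, held 5.55, 22.4 and 108 FPM (lowest, median, highest) with EGF and 0.502, 0.881 and 2.53 FPM with U46619. The groups did not overlap, and the difference of −4.40 ± 0.65 on the log2 scale was the largest of all DEG (21.2-fold, FDR = 0.0243). Its neighbour Abca9 (110100749-110168196) was at 4.68, 18.1 and 269 FPM with EGF and at 0.686, 2.38 and 10.6 FPM with U46619 (−3.25 ± 0.64, FDR = 0.0300). Mice 1 and 2 held the highest Abca9 levels with EGF, and the groups overlapped. Glt8d2 (chromosome 10, 82650433-82690650), a glycosyltransferase domain gene, was at 17.2, 18.9 and 54.7 FPM with EGF and at 2.69, 4.47 and 9.80 FPM with U46619, again without overlap (−2.29 ± 0.29, FDR = 0.0243).

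Small-molecule metabolism was represented by Inmt (−3.86 ± 0.91), an amine methyltransferase, Sult1a1 (−2.96 ± 0.61), a sulfotransferase, and Adh1 (−2.86 ± 0.64), an alcohol dehydrogenase that also oxidizes retinol. The Inmt value rests largely on mice 1 and 2, which held 143 and 47.1 FPM with EGF against 3.18 FPM or less in the other mice. Inmt was no DEG in any fit without 1 mouse, and only 4 of these fits tested it. Aspn, a small leucine-rich proteoglycan also called asporin, fell from a median of 17.9 FPM with EGF (4.53 to 62.4) to 3.17 FPM with U46619 (1.32 to 6.99), with a log2-fold change of −2.50 ± 0.40 (FDR = 0.0256). Ptgir, which encodes the prostacyclin receptor and so the receptor of the prostanoid that opposes thromboxane in vessels, was at 6.75, 17.1 and 79.5 FPM with EGF and at 1.87, 3.59 and 7.01 FPM with U46619 (−2.55 ± 0.52, FDR = 0.0306). Mouse 5 with U46619 lay just above mouse 3 with EGF, and all other U46619 cultures were below all EGF cultures. The remaining genes of this set were Lrrc17 (−2.80), Tril (−2.75), Dock10 (−2.69) and Scara5 (−2.39), a ferritin receptor found in adventitial fibroblasts.

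Rgs5, a GTPase activator that dampens G protein signaling and a mural cell gene, showed how unevenly a DEG could be carried by the mice. In mice 1 to 3 it was at 0.825 FPM or less with EGF, and in mice 4 to 6 it was at 280, 45.9 and 151.6 FPM with EGF and at 50.2, 5.70 and 55.5 FPM with U46619. The log2-fold change of −2.31 ± 0.26 (FDR = 0.0243) is thus a statement on 3 mice. Endothelial markers were high in the same 3 mice with both agonists, and their part in the Rgs5 result was not tested. Pdgfra, the PDGF receptor alpha, was higher with EGF in 6 of 6 mice, with 176.2, 303 and 379 FPM against 101.2, 129 and 183.4 FPM (−1.08 ± 0.14, FDR = 0.0243). Its groups overlapped only through mouse 1 with U46619. Ptn, the growth factor pleiotrophin, was abundant only in mouse 2 (345 FPM with EGF and 84.4 FPM with U46619), and Sned1 (−1.77 ± 0.23), a matrix protein, was lower with U46619 in every mouse.

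**Figure D2:**
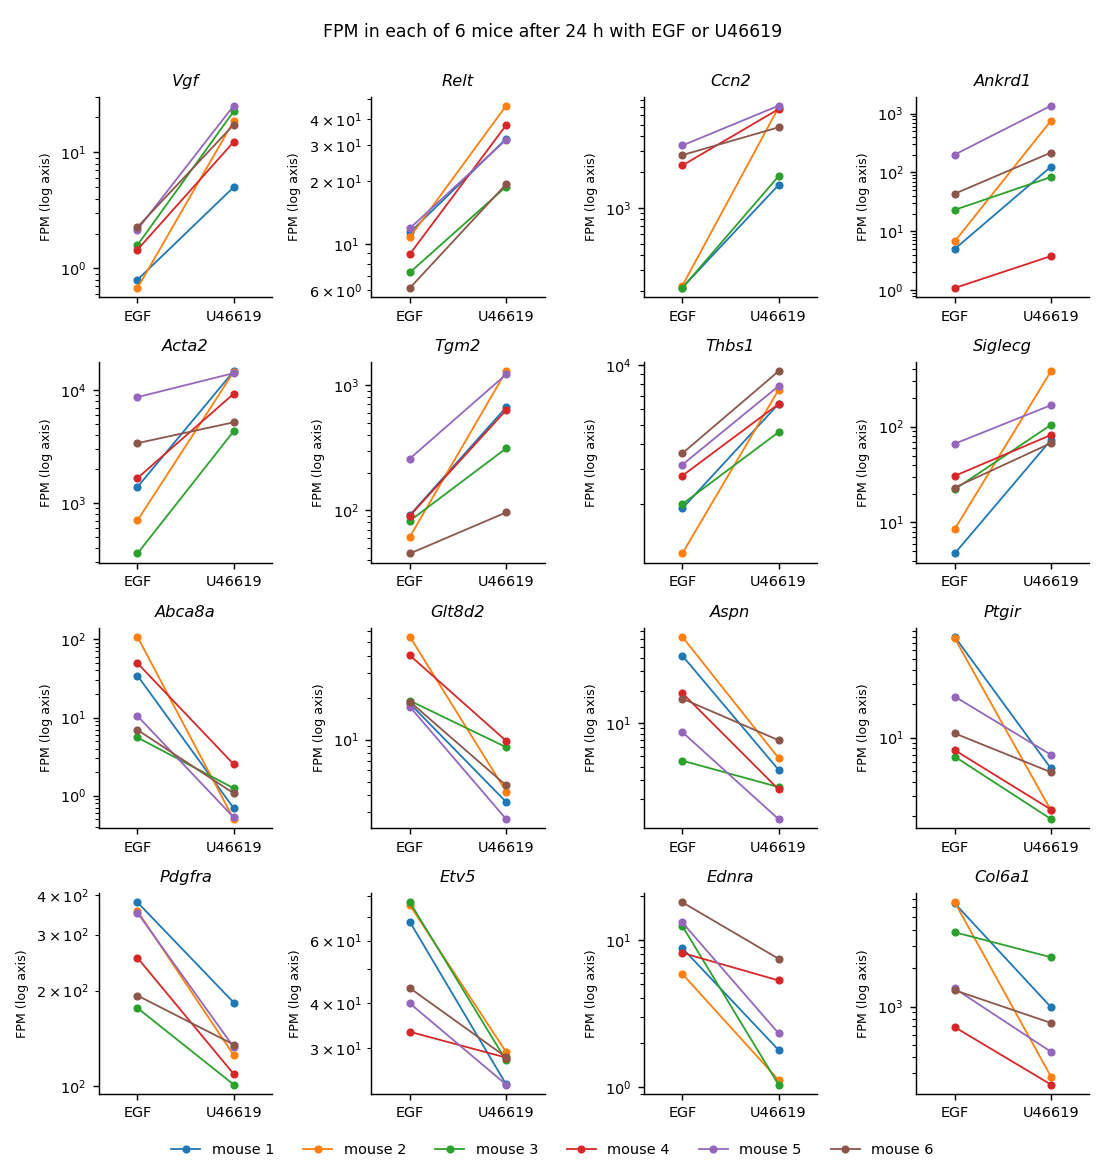
FPM (log axis) of 16 DEG in the culture with EGF and the culture with U46619 of each of 6 mice after 24 h. Each line joins the cultures of 1 mouse. All lines of the upper 8 genes rise and all lines of the lower 8 genes fall, while the level at which they start differs widely between mice, as for Ccn2 (213 to 3338 FPM with EGF).

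The promoters of 6 of these DEG are given here, because they show the sequence at the start of genes that stood apart. They were chosen in order of log2-fold change among those that hold the TEAD motif GGAATG, the AP-1 motif TGANTCA or an SRF CArG box (genes higher with U46619) or the CCAAT box, the cell cycle element TTTGAA or the E2F motif TTNGCGC (genes higher with EGF). Each runs 5′ to 3′ on the gene's strand from 250 bases before to 50 after the RefSeq start (GRCm38.p6), and capitals mark a motif match on either strand. Nppb (chr4:147985650-147985949, plus strand), Ankrd1 (chr19:36119795-36120094, minus), C4bp (chr1:130661569-130661868, minus), Acta2 (chr19:34255324-34255623, minus), Sult1a1 (chr7:126676369-126676668, minus) and Lrrc17 (chr5:21543277-21543576, plus) follow.
Nppb: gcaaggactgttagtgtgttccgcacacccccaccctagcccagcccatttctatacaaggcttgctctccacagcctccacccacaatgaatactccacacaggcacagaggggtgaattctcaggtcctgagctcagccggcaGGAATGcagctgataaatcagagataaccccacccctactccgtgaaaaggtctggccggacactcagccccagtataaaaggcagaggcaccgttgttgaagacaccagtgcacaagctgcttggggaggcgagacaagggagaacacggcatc
Ankrd1: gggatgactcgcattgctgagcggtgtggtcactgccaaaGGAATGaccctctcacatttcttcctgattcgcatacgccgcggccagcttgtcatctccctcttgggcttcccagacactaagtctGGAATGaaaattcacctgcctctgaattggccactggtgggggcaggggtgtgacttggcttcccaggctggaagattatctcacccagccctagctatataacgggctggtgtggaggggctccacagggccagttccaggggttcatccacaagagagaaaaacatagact
C4bp: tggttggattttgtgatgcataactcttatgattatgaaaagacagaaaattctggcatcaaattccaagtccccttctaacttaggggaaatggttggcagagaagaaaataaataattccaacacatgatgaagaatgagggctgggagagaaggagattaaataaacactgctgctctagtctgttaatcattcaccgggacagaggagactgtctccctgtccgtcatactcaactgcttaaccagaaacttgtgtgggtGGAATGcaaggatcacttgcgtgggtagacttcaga
Acta2: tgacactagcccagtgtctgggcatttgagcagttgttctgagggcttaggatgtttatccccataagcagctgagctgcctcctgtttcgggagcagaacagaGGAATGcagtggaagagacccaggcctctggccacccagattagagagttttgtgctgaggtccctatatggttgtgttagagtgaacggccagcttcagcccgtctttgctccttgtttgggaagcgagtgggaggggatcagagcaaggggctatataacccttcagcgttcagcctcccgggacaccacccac
Sult1a1: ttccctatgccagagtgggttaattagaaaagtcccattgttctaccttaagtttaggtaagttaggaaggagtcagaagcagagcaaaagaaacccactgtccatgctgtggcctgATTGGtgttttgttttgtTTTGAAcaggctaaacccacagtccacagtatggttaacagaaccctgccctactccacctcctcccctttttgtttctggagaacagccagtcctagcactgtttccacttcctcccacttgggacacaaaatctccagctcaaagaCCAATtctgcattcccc
Lrrc17: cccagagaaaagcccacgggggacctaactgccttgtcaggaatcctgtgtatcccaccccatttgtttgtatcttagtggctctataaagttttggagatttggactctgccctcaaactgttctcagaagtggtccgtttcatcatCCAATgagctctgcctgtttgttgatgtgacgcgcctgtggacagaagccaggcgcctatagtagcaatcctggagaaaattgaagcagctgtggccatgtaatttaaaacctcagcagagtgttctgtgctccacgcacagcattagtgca
The capitals are GGAATG in Nppb, Ankrd1, C4bp and Acta2, CCAAT in Lrrc17, and CCAAT and TTTGAA in Sult1a1. A CArG box was marked only where all bases between its CC and GG were A or T. The Acta2 stretches ccctatatgg and ccttgtttgg, which hold a C or a G there, were therefore left in lower case. The lack of a marked CArG box in Acta2 thus does not show that an SRF site is absent. In Ankrd1 the 2 matches begin 210 and 123 bases before the start, in Acta2 146 and in Nppb 105 bases before it. Such matches are common: GGAATG is found in 14.6%, CCAAT in 38.2% and TTTGAA in 18.5% of 22862 promoters of this length. Shares among the DEG are not given, because a promoter sequence was found for only 74.0% of them.

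A part of the smooth muscle contractile genes was higher with U46619. Of 20 SRF and MRTF contractile genes tested, 8 (40.0%) were DEG higher with U46619 and 0 higher with EGF, and 12 did not pass, of which Des, Synpo2, Mylk, Mrtfb and Synpo lay below 0. Of all genes tested, 4.91% were DEG higher with U46619 and 5.0% higher with EGF, and these are the shares to set beside the count of each list. In the contractile list the median log2-fold change was 0.75 against −0.02 over all genes tested. Acta2 (chromosome 19, 34241090-34255590), smooth muscle alpha-actin, was at 359, 1528 and 8649 FPM with EGF and at 4324, 11672 and 14636 FPM with U46619 (2.55 ± 0.56, FDR = 0.0335). In mice 5 and 6 it was already at 8649 and 3390 FPM with EGF, and there the within-mouse change was smallest. Actg2, smooth muscle gamma-actin, was at 2.40, 77.3 and 365 FPM with EGF and at 25.8, 214 and 3380 FPM with U46619 (2.74 ± 0.54, FDR = 0.0297). The myosin light chain Myl9 (1.44) and the tropomyosins Tpm2 (1.45) and Tpm4 (0.93) went the same way, as did Actn1 (1.02), Cald1 (0.72) and Mrtfa (0.36). Myh11, the smooth muscle myosin heavy chain, was not a DEG, with a log2-fold change of 0.77 ± 0.68 and an FDR of 0.455. The list's median by mouse was 1.48, 1.65 and 0.80 in mice 1 to 3 and 0.17, 0.09 and 0.23 in mice 4 to 6. The mice with the small changes are those with the high endothelial marker sums, and the part of these sums in the result was not tested.

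Of 20 target and partner genes of YAP and TEAD, 8 (40.0%) were DEG higher with U46619 and 1 higher with EGF, with a median log2-fold change of 0.57. The list's median by mouse was 0.70 to 0.91 in mice 1 to 3 and 0.19 to 0.21 in mice 4 to 6. Ccn2, a matricellular protein also known as CTGF, was at 213, 1245 and 3338 FPM with EGF and at 1553, 5734 and 7193 FPM with U46619 (2.34 ± 0.54, FDR = 0.0359). The groups overlapped, but mice 1 to 3 started near 213 to 222 FPM and mice 4 to 6 at 2269 FPM or more. Ccn1 (1.67), Axl (0.88), Ajuba (0.84), Nuak2 (0.82), Tgfb2 (0.58) and Lats2 (0.57) complete the group. Wwtr1, which encodes TAZ, the paralog of YAP, was higher with EGF (−0.44 ± 0.10, FDR = 0.0344). In the list of small GTPases of the RhoA family, their regulators and focal adhesion genes, 1 of 22 was higher with U46619, Pdlim7 (0.82 ± 0.22), and 1 with EGF, Arhgef1 (−0.35 ± 0.08), an exchange factor for RhoA.

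The matrix lists held DEG on both sides. Of 20 provisional matrix and matricellular genes 3 were higher with U46619 and 1 with EGF (median 0.02), and of 18 elastic fibre and crosslinking genes 3 were higher with each agonist (median 0.10). Thbs1, thrombospondin-1, was at 1131, 2391 and 3600 FPM with EGF and at 4595, 6933 and 9305 FPM with U46619, without overlap (1.58 ± 0.22, FDR = 0.0243). Tnc, tenascin-C, did not overlap either (30.7 to 258 FPM with EGF, 296 to 733 FPM with U46619, 1.57 ± 0.39). Lox, the lysyl oxidase that crosslinks collagen and elastin, was at 218, 560 and 1096 FPM with EGF and at 818, 1881 and 2246 FPM with U46619 (1.52 ± 0.29, FDR = 0.0284). With it went Loxl2 (0.68), Ltbp1 (1.23), which stores latent TGF-beta in the matrix, and the fibronectin receptor subunit Itga5 (1.28).

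Of 17 collagen genes, 4 (23.5%) were DEG higher with EGF and 0 higher with U46619 (median −0.53). They include 2 of the 3 collagen VI chains in the list. Col6a1 was at 689, 2607 and 6576 FPM with EGF and at 244, 592 and 2438 FPM with U46619 (−1.91 ± 0.48, FDR = 0.0429), and Col6a2 was at 287, 1777 and 4693 FPM with EGF and at 107, 333 and 1538 FPM with U46619 (−1.95 ± 0.44, FDR = 0.0346), whereas Col6a3 did not pass (−0.36 ± 0.17, FDR = 0.181). Col3a1 (−1.89) and Col14a1 (−1.21) were the other collagen DEG, while Col1a1 had −0.03 ± 0.24 (FDR = 0.945) and Col5a2 0.40 ± 0.15 (FDR = 0.104). The 8 small leucine-rich proteoglycans had the lowest median of all lists (−1.51), with Aspn and Ogn (−1.67 ± 0.45, FDR = 0.0498) as DEG. Their median by mouse was −2.73 and −2.72 in mice 1 and 2 and −1.34 and −1.15 in mice 4 and 5, but 0.09 and 0.01 in mice 3 and 6. Versican (Vcan, −1.33 ± 0.31), fibulin-1 (Fbln1, −1.42 ± 0.25), Fbln7 (−1.08 ± 0.25) and Emilin1 (−0.86) were higher with EGF. Of 20 matrix proteases and inhibitors, 6 were higher with EGF, among them the proteoglycan-cleaving Adamts5 (−1.29 ± 0.30), Adamts4 (−0.92) and Adamts9 (−0.98), the membrane-type protease Mmp15 (−1.36 ± 0.33), Mmp19 (−0.72) and the inhibitor Serpine2 (−0.83).

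Adventitial fibroblast and progenitor markers lay on the same side as these matrix genes. In part they are the same genes, since Col14a1 is also in the collagen list and Dcn and Lum are also in the proteoglycan list. Of 10 tested markers, 4 were DEG higher with EGF (Pdgfra, Scara5, Dpt and Col14a1) and 0 higher with U46619. Their summed level was 1009 to 2255 FPM with EGF and 372 to 2616 FPM with U46619, higher with U46619 in 1 of 6 mice (mouse 3). Their part in the collagen and proteoglycan results was not tested. The smooth muscle marker sum was higher with U46619 in 6 of 6 mice, but Acta2 made up most of it. The median sum was 2064 FPM with EGF and 13176 FPM with U46619, and the median of Acta2 alone was 1528 and 11672 FPM. Of the 6 tested markers, Acta2 and Myl9 were DEG. Lmod1 (1.32), Myh11 (0.77), Smtn (0.02) and Des (−0.35) were not.

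**Figure D3:**
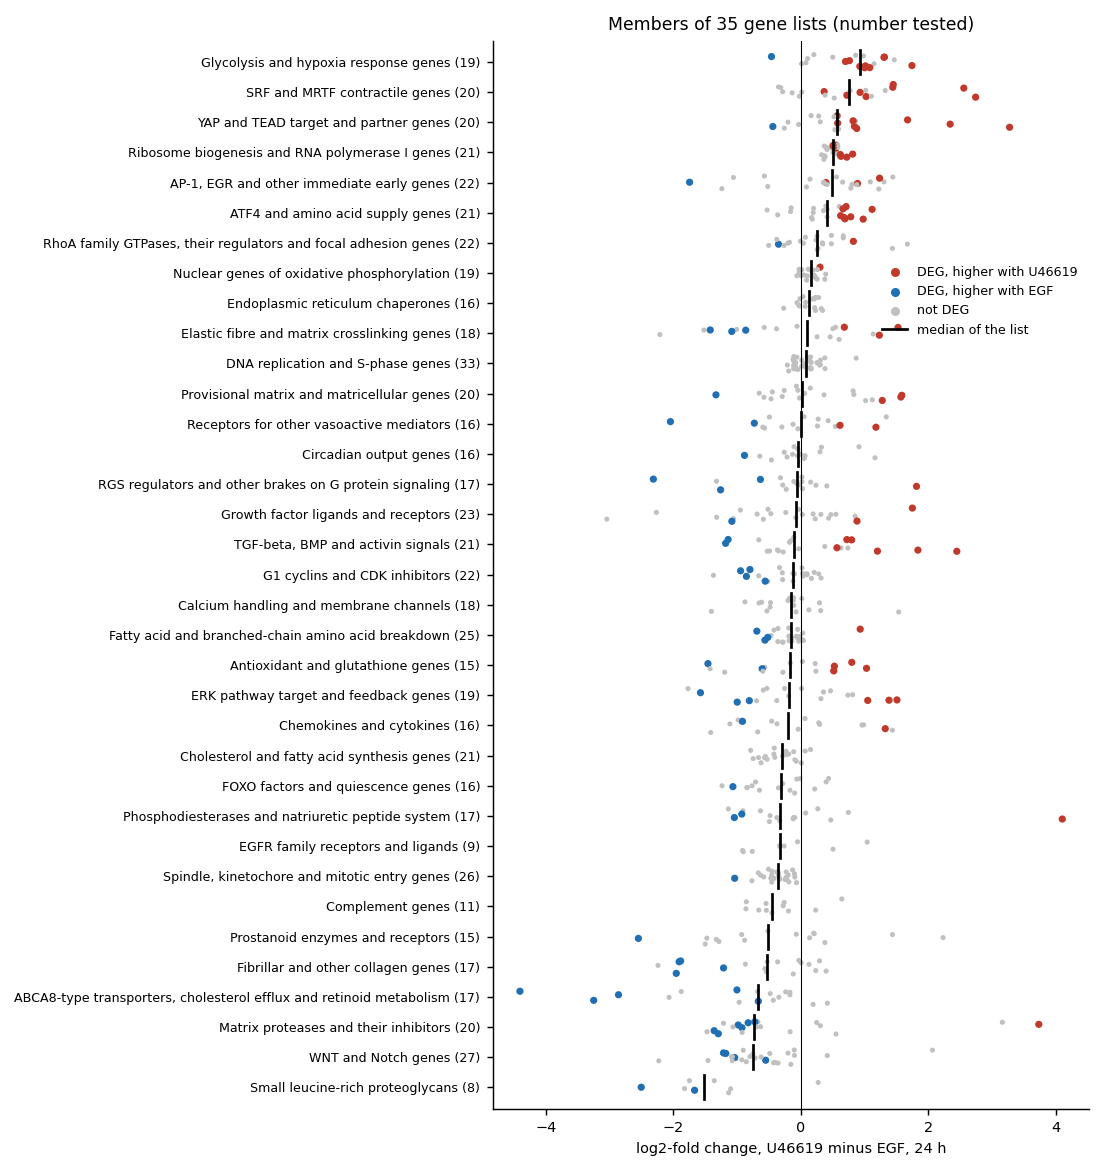
Log2-fold change (U46619 minus EGF) of each tested member of 35 gene lists after 24 h, ordered by the list median (black bars), with the number of tested members in brackets. Red and blue points are DEG and grey points are not. Glycolysis and contractile genes have the highest medians (0.92 and 0.75) and small leucine-rich proteoglycans the lowest (−1.51).

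Glycolysis gave the highest share of DEG of the 35 lists. Of 19 glycolysis and hypoxia response genes, 9 (47.4%) were DEG higher with U46619 and 1 higher with EGF, and the median of 0.92 was the highest of all lists. By mouse, this median was −0.11 in mouse 3 and 0.46 to 1.52 in the other mice. Hexokinase 2 (Hk2), which commits glucose to the cell, was at 11.0, 26.1 and 69.8 FPM with EGF and at 37.8, 79.4 and 199 FPM with U46619 (1.74 ± 0.43, FDR = 0.0401). The glucose transporter Slc2a1 was higher in 5 of 6 mice (1.31 ± 0.34, FDR = 0.0444), with mouse 3 the exception. Eno1 (1.30), Bnip3 (1.08), Pfkl (1.01), Ldha (1.00), Pgam1 (0.92), Aldoa (0.76) and Egln3 (0.70) followed, and the muscle phosphofructokinase Pfkm was higher with EGF (−0.46 ± 0.12, FDR = 0.0461). Gapdh, both a glycolytic gene and a common reference gene, had a log2-fold change of 0.98 ± 0.27 and missed the threshold (FDR = 0.0511). Its level was 87.8, 156.4 and 251 FPM with EGF and 171.7, 308 and 414 FPM with U46619, higher in 5 of 6 mice. The reference gene Eef2 had −0.03 ± 0.15 (FDR = 0.917).

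Ribosome biogenesis genes lay above 0 in 21 of 21 members, with 8 DEG higher with U46619, 0 with EGF and a median of 0.50. The list's median by mouse was −0.01 in mouse 3 and 0.25 to 0.99 in the other mice. Nop58, a core protein of snoRNA particles, was at 49.4, 56.7 and 98.8 FPM with EGF and at 75.4, 105 and 146 FPM with U46619 (0.72 ± 0.17, FDR = 0.0378). The largest change was that of Rrp12 (0.81 ± 0.21, FDR = 0.0454), a ribosome export factor. ATF4 and amino acid supply genes gave 8 of 21 DEG higher with U46619 and 0 with EGF (median 0.41), among them the glutathione-degrading Chac1 (1.12 ± 0.24), the cystine transporter Slc7a11 (0.98 ± 0.18), the asparagine synthetase Asns (0.71) and the serine pathway genes Phgdh (0.69), Psph (0.66) and Shmt2 (0.62). The median of the ATF4 list was −0.11 in mouse 2 and 0.17 to 0.88 in the other mice. Antioxidant genes went both ways. Heme oxygenase Hmox1 (1.03 ± 0.27), Txnrd1 (0.80 ± 0.16), Srxn1 (0.53) and Gclm (0.52) were higher with U46619, and the glutathione transferases Gstm1 (−1.46 ± 0.33) and Gstm2 (−0.61 ± 0.16), whose near-identical relatives can share reads, were higher with EGF.

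Fatty acid breakdown gave the DEG Ech1 (−0.69 ± 0.18), Acaa2 (−0.56 ± 0.15) and Hadh (−0.52) on the EGF side and the branched-chain aminotransferase Bcat1 (0.93 ± 0.21) on the U46619 side, of 25 tested. Ech1 levels did not overlap (100.0 to 208 FPM with EGF and 60.8 to 95.7 FPM with U46619). In the list of ABCA8-type transporters, cholesterol efflux and retinoid genes, 5 of 17 were higher with EGF and 0 with U46619 (median −0.67). Beside Abca8a, Abca9 and Adh1 these were Nr1h3, which encodes the sterol sensor LXR-alpha, and Apoe (−0.67). Of 21 genes of cholesterol and fatty acid synthesis and 16 chaperones of the endoplasmic reticulum, 0 were DEG, with medians of −0.29 and 0.13. Among 19 nuclear genes of oxidative phosphorylation Uqcrc2 was the only DEG (0.30 ± 0.08), which is 5.26% of the list.

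Of the cell cycle lists, those of DNA replication and of spindle genes held few DEG. Of 33 DNA replication genes 0 were DEG, with a median of 0.08. Pcna, the polymerase clamp, was at 155.01, 214 and 310 FPM with EGF and at 157.4, 253 and 348 FPM with U46619 (0.16 ± 0.14, FDR = 0.449). Of 22 G1 cyclins and CDK inhibitors, 4 (18.2%) were DEG higher with EGF and 0 higher with U46619, with a median of −0.12. Cyclin D1 (Ccnd1), which links growth factor signals to entry into the cell cycle, was at 262, 467 and 557 FPM with EGF and at 115, 252 and 298 FPM with U46619 (−0.95 ± 0.16, FDR = 0.0270), lower with U46619 in 6 of 6 mice. The CDK inhibitor genes Cdkn2c (−0.85 ± 0.16) and Cdkn2a (−0.80) and the pocket protein gene Rbl2 (−0.56) were higher with EGF too. All 26 spindle and kinetochore genes had a log2-fold change below 0 (median −0.35), but Cenpa, the centromeric histone variant, was the only DEG (−1.04 ± 0.18, FDR = 0.0270). The spindle list was not uniform, with medians of 0.22 and 0.76 in mice 1 and 2 and −0.55, −0.92, −1.18 and −0.36 in mice 3 to 6.

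Genes of the ERK pathway were found on both sides, 3 higher with each agonist out of 19. The feedback inhibitors and targets Spry1 (−1.57 ± 0.31), Etv5 (−0.998 ± 0.18) and Dusp6 (−0.81) were higher with EGF. Etv5 did not overlap, with 33.3, 55.9 and 76.7 FPM against 23.7, 28.0 and 29.3 FPM. Lif (1.51 ± 0.36), Ier3 (1.38 ± 0.25) and the phosphatase Dusp1 (1.05) were higher with U46619. Of 22 immediate early genes, Maff (1.23 ± 0.26), Ier5 (0.89 ± 0.24) and Fosl2 (0.39) were higher with U46619 and Egr3 (−1.74 ± 0.35) with EGF.

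The genes of the receptors under study were not DEG. Egfr was at 19.2, 160 and 228 FPM with EGF and at 26.0, 106 and 186.2 FPM with U46619 (−0.26 ± 0.24, FDR = 0.474). The thromboxane receptor Tbxa2r was at 14.7, 47.3 and 98.7 FPM with EGF and at 17.7, 30.9 and 39.3 FPM with U46619 (−0.52 ± 0.37, FDR = 0.366), higher with U46619 in mice 1 and 3. Agtr1a, the angiotensin II receptor, had a mean of 1.81 ± 2.23 FPM with EGF and 1.62 ± 2.58 FPM with U46619 (SD, n = 6). Of 9 EGFR family receptors and ligands 0 were DEG. Hbegf, an EGFR ligand, was higher with U46619 in 5 of 6 mice without passing (1.04 ± 0.42, FDR = 0.126). Among other vasoactive receptors, the endothelin receptor Ednra was at 5.87, 10.6 and 18.02 FPM with EGF and at 1.04, 2.05 and 7.45 FPM with U46619 (−2.04 ± 0.35, FDR = 0.0267), and the lysophosphatidic acid receptor Lpar1 was higher with EGF as well (−0.73 ± 0.16). The adrenoceptor Adra2a (1.18 ± 0.20) and the nucleotide receptor P2ry2 (0.61 ± 0.11) were higher with U46619.

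Of the brakes on G protein signaling, Rgs16 was higher with U46619 (1.81 ± 0.35, FDR = 0.0285), and Rgs2 (−1.26 ± 0.28), Rgs5 and the arrestin Arrb1 (−0.63) were higher with EGF, of 17 tested. The phosphodiesterases Pde1a (−1.04 ± 0.28) and Pde5a (−0.93 ± 0.23), which degrade cyclic nucleotides, were higher with EGF, but Pde1a passed in no fit without 1 mouse (FDR = 0.0632 to 0.108). Of 15 prostanoid genes Ptgir was the only DEG. The cyclooxygenase Ptgs2 had a log2-fold change of 2.23 ± 0.74 and missed the threshold (FDR = 0.0776). Of 18 calcium handling genes 0 were DEG.

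Signals between cells differed in part. In the TGF-beta, BMP and activin list 6 of 21 were higher with U46619, among them Tgfb3 (1.83 ± 0.45), Fstl3 (1.20), Inhba (0.80), Smad7 (0.72) and Skil (0.57), and Id4 (−1.18 ± 0.17) and Tgfbr3 (−1.14 ± 0.29) were higher with EGF. The macrophage growth factor Csf1 was at 448, 855 and 1296 FPM with EGF and at 949, 2171 and 3384 FPM with U46619 (1.32 ± 0.28, FDR = 0.0321). Igfbp2 (1.75 ± 0.32) and Vegfa (0.88 ± 0.15) were higher with U46619, and the interleukin-1 receptor Il1r1 (−0.91 ± 0.16) with EGF. In the WNT and Notch list 25 of 27 genes lay below 0 (median −0.75), with Fzd1 (−1.21 ± 0.21), Dkk3 (−1.18 ± 0.26), Notch1 (−1.04) and Fzd4 (−0.55) as DEG higher with EGF and 0 higher with U46619. Of 11 complement genes 0 passed, of 16 FOXO and quiescence genes 1 did (Sesn1, −1.07 ± 0.23), and of 16 circadian genes 1 (Per3, −0.88 ± 0.23), each 6.25% and so near the 5.0% of all genes.

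The same comparison could be made after 48 h in libraries that the 24 h test did not use, from other cultures (10 libraries, 5 culture sets, mice 7 to 10 by the labels). There 1096 of 13920 genes were DEG (7.87%), 530 higher with U46619 (3.81%) and 566 higher with EGF (4.07%). This fit takes each culture set as a block. The labels give 1 mouse number to 2 of the 5 sets, and with that number as the block 95 genes were DEG, of which 64 were also DEG after 24 h, all 64 in the same direction. Of the 634 genes higher with U46619 after 24 h, 618 (97.5%) had the same sign after 48 h and 246 were called again. Of the 646 genes higher with EGF, 615 (95.2%) had the same sign and 230 were called again. Among genes that were not DEG after 24 h, 72.4% had the same sign. In all, 476 genes were DEG at both times, 37.2% of those of 24 h and 43.4% of those of 48 h, and 0 were called in opposite directions.

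The sizes were smaller after 48 h. The median log2-fold change of the 24 h sets was 0.68 after 24 h and 0.32 after 48 h on the U46619 side, and −0.74 and −0.35 on the EGF side, and these genes were chosen on their 24 h values. The EGF-side genes Abca8a (−4.01 ± 0.43 after 48 h), Aspn (−2.78 ± 0.15), Lrrc17 (−3.24 ± 0.22) and Scara5 (−2.40 ± 0.35) had values close to or beyond those of 24 h. On the U46619 side Vgf (1.92 ± 0.32), Klhl30 (2.24 ± 0.27) and Thbs1 (1.12 ± 0.11) were DEG again. Of the contractile list, Synpo2 (−0.53) was a DEG higher with EGF after 48 h. In the same list 3 genes, Actn1 (0.49), Cald1 (0.44) and Mrtfa (0.40), were DEG higher with U46619 again. The actins were not: Acta2 had 0.37 ± 0.17 (FDR = 0.205), Actg2 0.14 ± 0.26 (FDR = 0.792), and the median of the list was 0.10. Tgfb3 (−0.01 ± 0.14) and H2.M1 (0.11 ± 0.22) were also near 0. Tbxa2r, by contrast, was a DEG after 48 h, higher with EGF (−0.81 ± 0.13, FDR = 0.00578), in 5 of 5 culture sets.

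Whether the change differed between the times was tested as an interaction over all 22 libraries. With edgeR's quasi-likelihood test 0 of 14243 genes passed, with 1046 (7.34%) at an unadjusted p under 0.05, and DESeq2 called 10. The interaction FDR was 0.645 for Acta2 and Actg2, 0.458 for Cenpa and H2.M1 and 0.448 for Relt, the last 3 of which are among the genes DESeq2 called. The times differ in mice and sequencing batch as well as in hours, and these cannot be told apart.

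**Figure D4:**
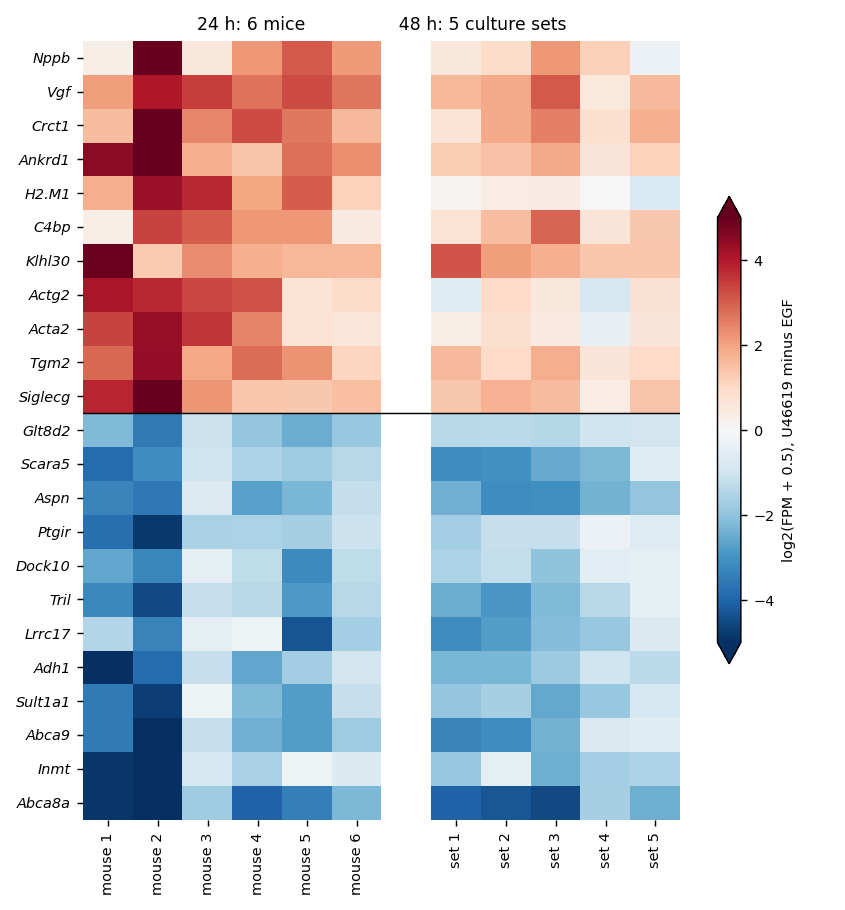
Within-mouse difference in log2(FPM + 0.5), U46619 minus EGF, of 23 of the DEG with the largest changes that moved the same way in 6 of 6 mice after 24 h (left, mice 1 to 6) and of the same genes after 48 h (right, 5 culture sets of other mice). Red is higher with U46619 and blue higher with EGF, and the colour is saturated beyond the ends of the scale. Acta2, Actg2 and H2.M1 are pale after 48 h, and Abca8a and Aspn stay blue.

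A difference between 2 agonists does not say which of them moved a gene. The fold change of each agonist against the 24 h control cultures of the same mice is therefore set beside it, from a fit of all 42 libraries of 24 h in which both comparisons share the control and the 12 libraries. For the 634 genes higher with U46619 the median log2-fold change from control was 0.10 with EGF and 0.82 with U46619, and for the 646 genes higher with EGF it was −0.13 and −0.85. U46619 was the agonist farther from control for 590 (93.1%) and 575 (89.0%) of them. The same share over all genes tested is not given, so these counts do not set the DEG apart from other genes. In the first set 548 genes passed an FDR under 0.05 against control with U46619 and 0 with EGF, and in the second 526 and 1. Of all 14653 genes in that fit, 33.7% passed with U46619 and 0.0341% (5 genes) with EGF. These calls against control are from edgeR's quasi-likelihood test alone, without DESeq2 and without the minimum of 5 FPM. The paper, which required edgeR and DESeq2 together, reports more DEG with EGF against control after 24 h than passed here. For 425 DEG (33.2%) the agonists lay on opposite sides of control, but the smaller of both changes had a median of only 0.17 and was over 0.5 for 36 genes. For this count, too, no share over all genes is given.

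By this measure Acta2 had −0.37 from control with EGF and 2.05 with U46619. Abca9 had 1.03 and −2.07, Ptgir 1.12 and −1.56, and Tril 1.19 and −1.66, so that their fitted values lay above control with EGF and below it with U46619. The fitted values of Etv5 (1.46 and 0.39), Ccnd1 (0.91 and −0.00) and Cenpa (1.22 and 0.28) were farther from control with EGF. Abca9, Ptgir, Tril, Etv5, Ccnd1 and Cenpa are all among the 646 genes higher with EGF. Of these 646, only 1 passed an FDR under 0.05 against control with EGF. The 33 DNA replication genes had a median of 1.13 from control with EGF and 1.29 with U46619, and 2 and 32 of them passed as higher than control, against 0.0136% and 15.1% of all genes. The 26 spindle genes had medians of 1.47 and 1.24, and 0 and 5 of them passed.

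**Figure D5:**
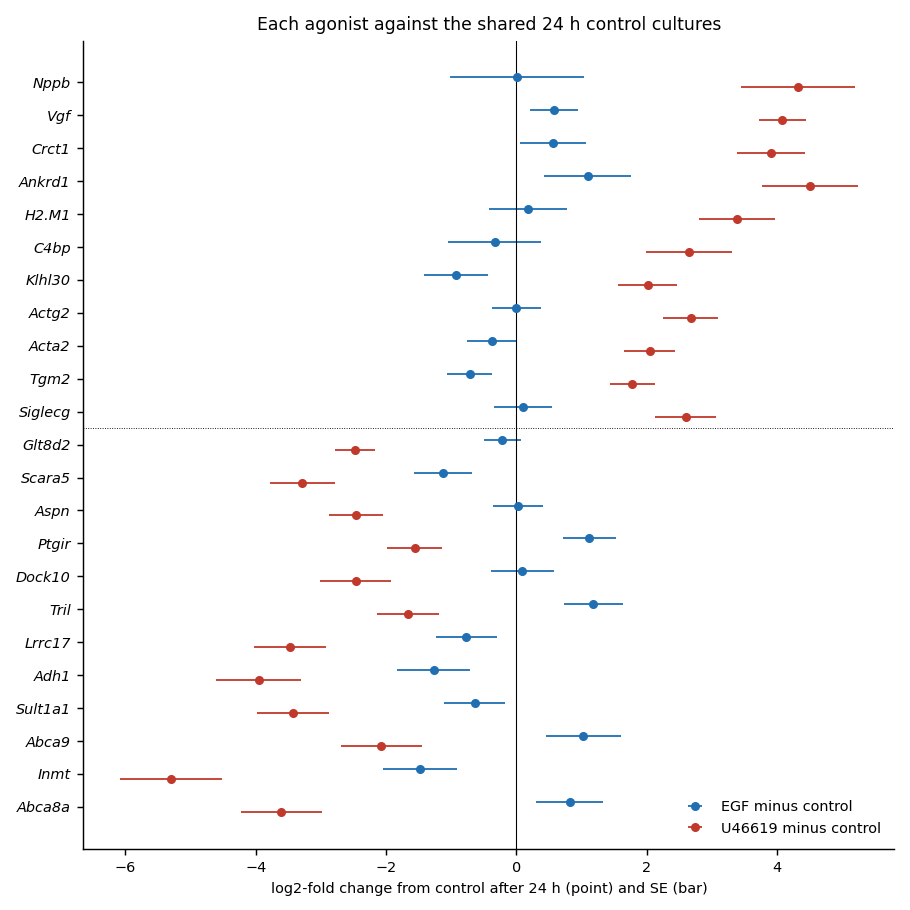
Log2-fold change from the 24 h control cultures (point) with its SE (bar) for EGF (blue) and U46619 (red), for 23 of the DEG with the largest changes that moved the same way in 6 of 6 mice. Both comparisons share the control libraries of 6 mice. For all 23 genes the red point lies farther from 0 than the blue one.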

How the data were processed

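Per the labels and the methods, the authors made poly(A)-enriched libraries, aligned the reads to mm10 with HISAT2 2.1.0 and counted them per gene with featureCounts, multi-mapping reads included, so genes with near-identical copies share reads. Whether strand was used in counting is not given in the sources used here. The deposited table holds whole-number counts per gene, without normalization. Samples were grouped by the labels, and positions are those of GENCODE for GRCm38, the build that mm10 names.

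Counts were scaled by TMM to FPM and tested with edgeR 4.0.16 (quasi-likelihood, R 4.3.3) and DESeq2 1.42.0, with mouse and treatment as terms, on the 12 libraries alone and after filterByExpr. A DEG had a Benjamini-Hochberg FDR under 0.05 in both tools and a mean level of 5 FPM or more in 1 group. Printed FDR are edgeR's, and SE follow from its test statistic. After 48 h the culture set was the block, because each set is stated to be a different mouse while the labels give 1 mouse number to 2 of the 5 sets. limma 3.58.1 was run on within-mouse differences of log2(FPM + 0.5), the scale also used for values by mouse. The mouse numbers pair the cultures by the labels (r = 0.619 to 0.871 within a mouse, at most 0.300 between mice).

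Named are the 12 DEG with the largest change in each direction that moved the same way in 6 of 6 mice, the 5 with the lowest FDR in each direction, the receptor and reference genes, at most 2 DEG per direction and list in detail, and DEG of the lists in counts. Of these, 2 DEG are not reported here. Myh11, Col1a1, Ptgs2 and the genes given beside chromosomal neighbours were added after their values were seen. The comparison, the 35 gene lists and the 8 marker lists were chosen with earlier results of these data known. Lists are described by counts and medians, without a test. On simulated counts with 200 of 12916 genes changed, the 24 h step recovered 119 of them among 124 calls (55 of 66 genes with a 4-fold change, 49 of 67 at 2-fold, 15 of 67 at 1.5-fold). In the simulation a changed gene had the same fold in all mice, and fewer genes changed than were DEG in the data. These rates therefore need not hold for the data. Replicates are cultures of different mice after 24 h. Alternatives were other tools, scalings, filters, blocks and sets of libraries, and leaving out each mouse.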

Additional observations from a re-analysis of the deposited data

Results flagged for a closer look

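Within-mouse log2 differences (U46619 minus EGF, log2 of FPM + 0.5) of the 109 named genes were searched for a mouse far from the other 5 by Dixon's criterion, which flags about 5.0% of sets of 6 by chance. It flagged 7 genes, and 3 of the 7 concern mouse 1. Klhl30 was 4.93 in mouse 1 and 1.32 to 2.37 in the others, Chac1 2.48 in mouse 1 and 0.45 to 1.10 in the others, and Scd1, which is not a DEG, 0.67 in mouse 1 and −0.35 to −0.17 in the others. In mouse 2, Csf1 had 2.92 against 0.44 to 1.31, Thbs1 2.73 against 1.20 to 1.74, and Pcna, not a DEG, 0.90 against −0.21 to 0.17. Arhgdig was lowest in mouse 3, with 0.84 against 1.57 to 1.92. In the 5 DEG among these, every mouse still had the direction of the call. Without mouse 1, Klhl30 was still a DEG with a log2-fold change of 2.38 (FDR = 0.0372 in edgeR's quasi-likelihood test).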

How the results depend on the processing

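The 24 h count of 1280 DEG became 2406 with DESeq2 alone, 2233 with the likelihood ratio test and DESeq2, and 1897 without the filter on low counts. It was 0 with limma on paired differences (4389 genes at an unadjusted p under 0.05) and 1 without the replicate block (1410 at an unadjusted p). Leaving out 1 mouse gave 2 to 1347 DEG, with 6, 2 and 2 without mice 1, 4 and 5 and 503 without mouse 2. The other alternatives gave 1275 to 1645.

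After 48 h the count of 1096 became 95 with the mouse number of the labels as the block, 0 with limma on paired differences (3389 at an unadjusted p) and 0 without the block (1058), and leaving out 1 culture set gave 424 to 1298, with 511 and 424 without sets 1 and 3. The difference between the times, 0 genes with edgeR, was 10 with DESeq2 and 0 to 1 when 1 mouse or set was left out; the 1 gene, Cdh6, was called without mouse 6 (−4.56, FDR = 0.0103). The causes of these shifts were not tested.

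Over 109 named genes, values had the same direction and the same side of the threshold in 1292 recomputations, lost the call in 522, gained one in 14 and turned sign in 2. The reversals were Eef2 without mouse 2 (0.050, with a range of −0.14 to 0.050 over the fits without 1 mouse) and Scd2 without the block (0.12, FDR = 0.972). Depth limits the low genes: Nppb had at most 12 reads in any EGF culture.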

Other observations

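Some of the strongest DEG lie near each other on a chromosome, and no list had been made by position. The 5 transporters that follow are, however, all members of the list of ABCA8-type transporters, cholesterol efflux and retinoid genes. On chromosome 11, Abca8b, Abca8a, Abca9, Abca6 and Abca5 lie in a row on the minus strand over 405.5 kb. All 5 were lower with U46619 on average (−2.07, −4.40, −3.25, −1.87 and −0.68), and Abca8a and Abca9 were DEG. Abca6 passed in edgeR's quasi-likelihood test (FDR = 0.0256) but stayed under the 5 FPM minimum, and Abca8b (FDR = 0.0727) and Abca5 (FDR = 0.140) did not pass. The transporters are related in sequence, and reads that fit several of them were counted by the authors, so shared reads cannot be told apart from shared change. After 48 h the order from Abca8b to Abca5 was −1.35, −4.01, −2.18, −1.44 and −0.20. Relt and Ppme1, which together span 536.7 kb on chromosome 7, were both higher with U46619, with 0 other DEG among the 6 tested genes between them.

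Over all genes tested, 15.6% of the DEG higher with U46619 had the next tested, non-overlapping gene on either side called in the same direction, compared with 8.98% of the DEG higher with EGF and 8.08% of genes that were not DEG. For a neighbour higher with EGF the shares were 15.0% of the DEG higher with EGF, 8.83% of those higher with U46619 and 8.45% of the other genes. These shares were computed after the clusters had been seen and carry no test.

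Csf1r, the receptor of Csf1, was a DEG higher with U46619 as well (1.21 ± 0.20, FDR = 0.0256), at 1.70 to 14.9 FPM with EGF and 4.78 to 24.5 FPM with U46619. It belongs to the list of 10 myeloid markers, whose summed level was 20.2 to 111 FPM with EGF and 24.8 to 80.3 FPM with U46619 and higher with U46619 in 2 of 6 mice. Lyz2 of this list was a DEG higher with EGF (−0.88 ± 0.24), Cd68 and Cd14 were not DEG, Ptprc and Fcgr1 were at 0 in all 12 libraries, and Adgre1, C1qa, C1qb and Mrc1 stayed under 1 FPM. Their part in the Csf1r result was not tested.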
